A study of Mus musculus with 6 samples.

Results

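The genes described here mark B cells or belong to their antigen receptor, and they were measured in kidneys from 3 MRL and 3 LPR mice: Cd79a, Cd79b, Ms4a1, Pax5, Cd22, Blk, Cr2, Fcer2a and Bank1. These are 9 of the 36870 gene names on the array, and every probe that carries one of them was taken, which gave 18 of 56605 probes. MRL mice carry the MRL/MpJ background, and LPR mice carry the same background with the Fas lpr/lpr mutation (MRL/MpJ-Fas lpr/lpr), a model of systemic lupus with kidney disease. All 6 mice were female and 6 months old, none was given any agent according to the labels, and each kidney RNA was labelled with Cy3 and read on 1 array of a single slide. The series asks which genes tied to tertiary lymphoid tissue differ between control and diseased kidneys.

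B cells recognise antigen through a membrane immunoglobulin that is bound to the CD79A and CD79B chains, which carry the signal into the cell. Other surface proteins raise or damp that signal: CR2 (CD21) is a co-receptor for complement-tagged antigen, while CD22 is an inhibitory co-receptor. A healthy kidney holds few B cells, whereas B cells are a usual part of the lymphocyte clusters that form around vessels in lupus nephritis. In whole kidney, more cells of a type and more RNA per cell cannot be told apart.

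Of the 18 probes, 14 passed the filter on dim signal (well above background on 3 or more of the 6 arrays) and were tested, and they represent 8 genes. The only Blk probe and 1 probe each of Pax5, Cd22 and Bank1 were not tested. Bank1 A_52_P277104 and Fcer2a A_51_P210591 passed the filter through their LPR arrays alone, which bears on the counts below. Of the 14 tested probes, 5 were higher in LPR mice, 1 each for Cd79a, Cd79b, Ms4a1, Cd22 and Bank1, where 6.53% of all 39924 tested probes were higher in limma at an adjusted p under 0.05. A single probe, also of Ms4a1, was lower, where 6.17% of all tested probes were lower. The remaining 8 tested probes did not pass, and in all 8 the values of both groups overlapped. LPR arrays all lay above MRL arrays in 5 of the 14 probes, against 11% of all tested probes, and all below in 1, against 26.9%. The median log2 change over all tested probes was -0.14.

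The probes that carry these results are 60-base oligonucleotides. Those of Cd79a and Cd22 A_51_P448140 are printed whole, and the others by their first 30 bases, in the orientation of the array file. Both Ms4a1 probes and 2 of the Cd22 probes are shown because the probes of these genes did not move alike. Capitals mark a run of at least 3 ccaa repeats.
Cd79a A_66_P120987: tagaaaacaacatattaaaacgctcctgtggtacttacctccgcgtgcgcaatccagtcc
Cd79b A_51_P342652: agagacttgttggaatctgcaaatggactc
Ms4a1 A_55_P2802151: cagaaatgtaatgggttcccagatctcaaa
Ms4a1 A_66_P120649: ccgctatgcctggagaggatggggaggtgg
Cd22 A_51_P448140: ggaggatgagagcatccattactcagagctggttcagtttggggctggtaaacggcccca
Cd22 A_55_P2016004: gaaaaatgaaaaaCCAACCAACCAACCAAa
Bank1 A_52_P277104: aagatggagactcatagcattctctgaaaa

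Coordinates below are those of the array annotation on mm9. No mm9 gene models were used here, so the exon or untranslated region that a probe lies in is not given. Of the 18 probes, 13 carry a RefSeq accession, and all 13 matched a current gene of the same symbol.

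The signalling chains of the receptor were both higher in LPR mice. The Cd79a probe (NM_007655, chr7:25684357-25684614, plus strand) had log2 signals, relative to the 75th percentile of each array, of -5.44, -5.64 and -4.95 in MRL mice and -3.74, -3.21 and -3.45 in LPR mice. Every LPR mouse lay above every MRL mouse, with a gap of 1.21 between the groups. Its log2 change was 1.88 ± 0.21 (SE, n = 3 per group), a 3.67-fold difference (limma, adjusted p = 0.00194).

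The Cd79b probe (NM_008339, chr11:106172780-106172839, minus strand) had log2 signals of -1.38, -1.21 and -0.77 in MRL mice and 1.41, 1.90 and 1.84 in LPR mice. It was well above background on all 6 arrays, and the gap of 2.17 between the groups was wider than the range within either group. The log2 change was 2.83 ± 0.20 (SE, n = 3 per group), or 7.12-fold (limma, adjusted p = 0.000226). In the deposited intensities this was 284 to 415 in MRL mice and 2494 to 2760 in LPR mice, before any scaling between arrays.

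Ms4a1 encodes CD20, a membrane protein of mature B cells, and its 2 probes went opposite ways. Probe A_55_P2802151 (NM_007641, chr19:11325409-11325468, minus strand) had log2 signals of -5.68, -4.52 and -7.27 in MRL mice and -0.91, -0.87 and -0.72 in LPR mice. The LPR mice lay within 0.19 of each other, whereas the MRL mice spread over 2.75, and 2 of the 3 MRL arrays were well above background. The log2 change was 4.99 ± 0.62 (SE, n = 3 per group), or 31.8-fold (limma, adjusted p = 0.00281), the largest among the 14 tested probes. It was 5.64 without MRL mouse 2 and 4.27 without MRL mouse 3, so these 2 mice set how large the fold is.

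Probe A_66_P120649 of Ms4a1 (ENSMUST00000169159, chr19:11324334-11324393, minus strand) starts 1075 bases from the first. It had log2 signals of -2.85, -2.35 and -2.93 in MRL mice and -3.22, -3.51 and -3.51 in LPR mice, all well above background. The groups did not overlap, with the LPR mice below. Its log2 change of -0.70 ± 0.18 (SE, n = 3 per group) passed narrowly (limma, adjusted p = 0.0497), and the call was lost in 14 of 19 alternatives, each mouse left out in turn included. By the mean of both probes, Ms4a1 was higher by 2.15 on the log2 scale (limma, adjusted p = 0.0140).

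Cd22, the inhibitory co-receptor, had 4 probes, and they too disagreed. Probe A_51_P448140 (NM_009845, chr7:31651590-31651649, minus strand) had log2 signals of -5.79, -5.28 and -6.20 in MRL mice and -2.23, -2.18 and -2.45 in LPR mice. Of the 3 MRL arrays, 1 was well above background, and the groups lay 2.82 apart. The log2 change was 3.47 ± 0.23 (SE, n = 3 per group), or 11.1-fold (limma, adjusted p = 0.000160).

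Probe A_55_P2016004 of Cd22 (NM_001043317, chr7:31651249-31651308, minus strand) starts 341 bases from that probe and gave a log2 change near 0. Its log2 signals were 0.02, -0.35 and -0.53 in MRL mice and -0.37, -0.29 and -0.28 in LPR mice. The values overlapped, and the log2 change was -0.03 with a 95% confidence interval of -0.39 to 0.34 (limma, adjusted p = 0.919). This probe holds the ccaa run shown above, which 0.0124% of all probes on the array hold on either strand, and 30 distinct runs of 4 bases, with only 0.36% of all probes holding as few. What it hybridises to in kidney RNA was not tested.

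The remaining Cd22 probes lie 13523 and 9553 bases from A_51_P448140. Probe A_55_P2163795 (ENSMUST00000186154, chr7:31665113-31665172) had a log2 change of -0.11 ± 0.21 (SE, n = 3 per group; limma, adjusted p = 0.761). Probe A_52_P466268 (NM_009845, chr7:31661143-31662467) was well above background on no MRL array and on 2 of 3 LPR arrays, so it was not tested. Its log2 signals were -7.96, -6.80 and -8.07 in MRL mice and -6.00, -5.62 and -6.28 in LPR mice. The mean of the 3 tested Cd22 probes was higher by 1.11 on the log2 scale (limma, adjusted p = 0.000565).

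**Figure D1:**
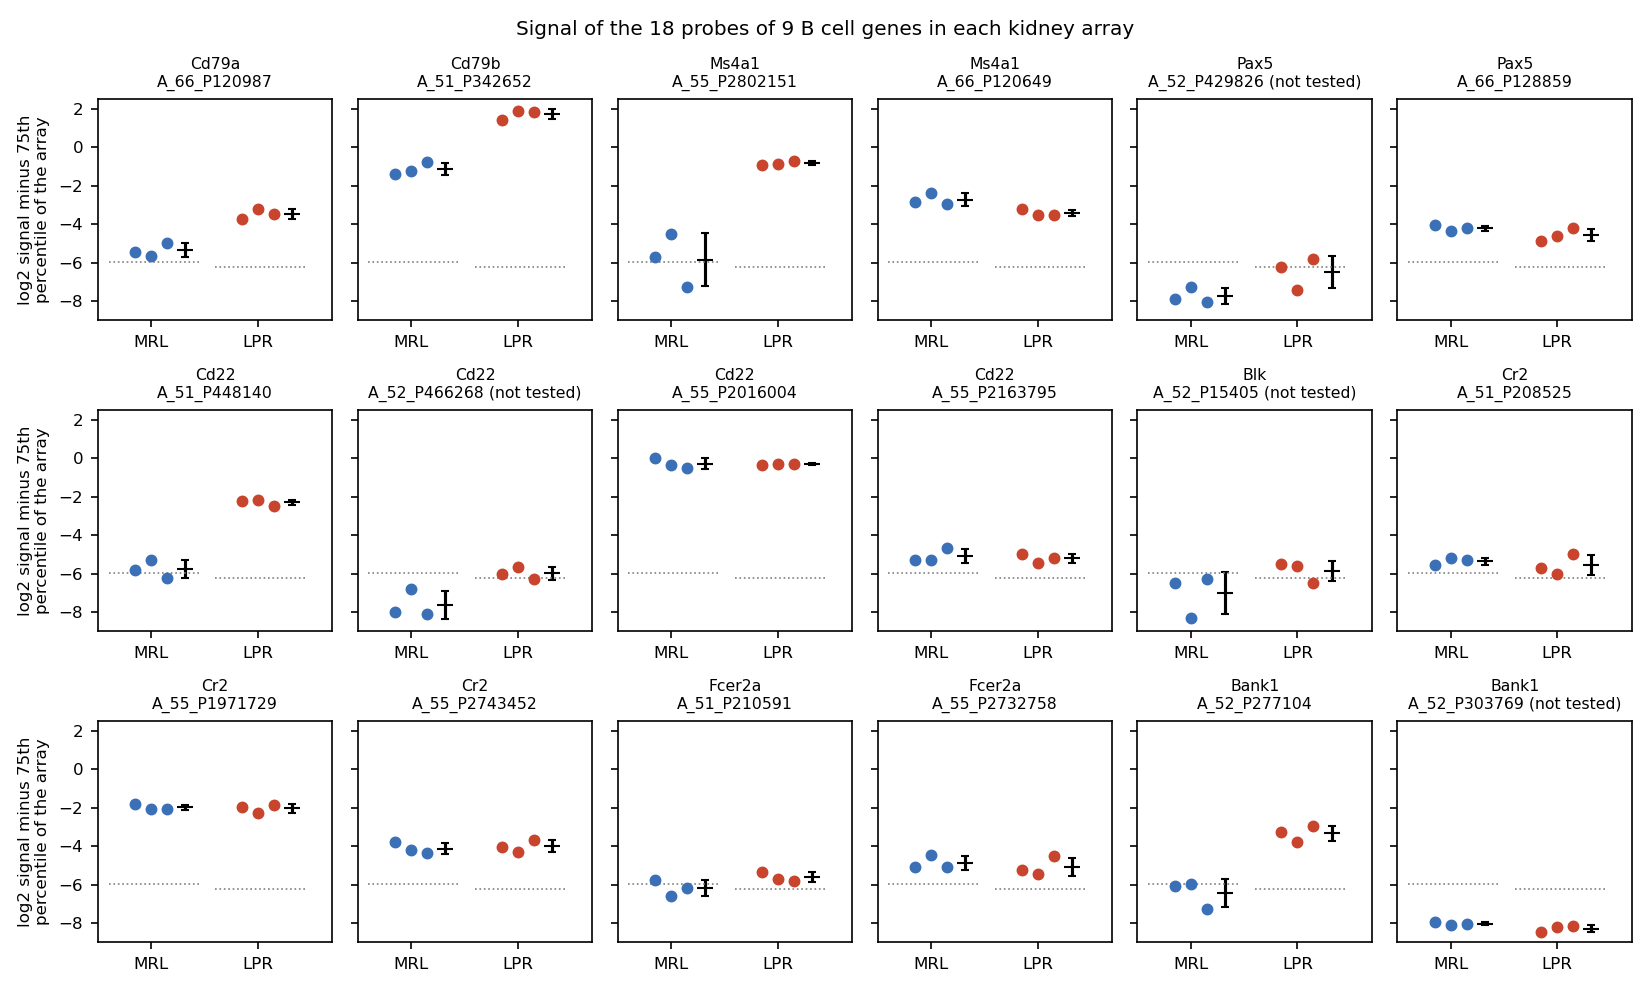
Log2 signal minus the 75th percentile of the array (vertical axis) of each of the 18 probes in 3 MRL and 3 LPR kidneys. Dots are mice, black bars are the mean ± SD (n = 3), and dotted lines show the mean detection limit of each group. Both groups are apart for Cd79a, Cd79b, Cd22 A_51_P448140, Bank1 A_52_P277104 and Ms4a1 A_55_P2802151, while the other Ms4a1 probe lies lower in LPR mice and the Cr2 probes overlap.

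Among the proteins that act inside the cell, Bank1, a scaffold that links receptor signals to calcium release, differed and Blk could not be tested. Bank1 probe A_52_P277104 (NM_001033350, chr3:135716867-135716926, minus strand) had log2 signals of -6.07, -5.95 and -7.27 in MRL mice and -3.27, -3.75 and -2.95 in LPR mice. No MRL array was well above background, whereas all 3 LPR arrays were, so the fold is a lower bound. For this bound, the limit of each array was the lowest signal that counted as well above background. Signals of the dim group below it were raised to it, and the others, such as that of MRL mouse 2, were kept. The Bank1 signal was then higher by at least 6.10-fold in LPR mice. Without the bound the log2 change was 3.11 (limma, adjusted p = 0.00268), with MRL signals near or below that limit. The other Bank1 probe, A_52_P303769 (ENSMUST00000198034, chr3:135874089-135874148), was well above background on no array, with log2 signals between -8.46 and -7.93.

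Blk, a Src-family kinase that acts just below the receptor, was read by a single probe, A_52_P15405 (NM_007549, chr14:63997333-63998470, minus strand). Its log2 signals were -6.45, -8.26 and -6.25 in MRL mice and -5.49, -5.58 and -6.47 in LPR mice. It was well above background on no MRL array and on 2 LPR arrays, LPR mouse 3 being the exception, and the groups overlapped. No fold is given for Blk, since both groups hold arrays that were not well above background.

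Pax5, the transcription factor that holds cells in the B lineage, gave no call in either direction. Probe A_66_P128859 (NM_008782, chr4:44692322-44692381, minus strand) had log2 signals of -4.06, -4.32 and -4.20 in MRL mice and -4.84, -4.63 and -4.20 in LPR mice. LPR mouse 3 lay inside the MRL values and the other LPR mice lay below them. The log2 change was -0.36, with a 95% confidence interval of -0.79 to 0.07 (limma, adjusted p = 0.227). The other Pax5 probe, A_52_P429826 (ENSMUST00000014174, chr4:44537936-44537995), was not well above background on any array.

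The coreceptor and low-affinity receptor genes of mature B cells, Cr2 and Fcer2a, did not pass on any of their 5 probes. Cr2 is also made by follicular dendritic cells, the stromal cells that hold antigen in follicles. Its brightest probe, A_55_P1971729 (NM_007758, chr1:196965532-196965591, minus strand), had log2 signals of -1.82, -2.08 and -2.05 in MRL mice and -1.97, -2.27 and -1.84 in LPR mice. The values of both groups ran through each other, and the log2 change was -0.04, with a 95% confidence interval of -0.39 to 0.30 (limma, adjusted p = 0.862). Cr2 probes A_51_P208525 (chr1:196967371-196967430) and A_55_P2743452 (chr1:196965890-196965949), of the same accession and strand, had log2 changes of -0.21 ± 0.26 and 0.12 ± 0.21 (SE, n = 3 per group). The 95% confidence intervals of the 3 Cr2 probes spanned -0.82 to 0.62 between them.

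Fcer2a encodes CD23, the low-affinity receptor for IgE. Its probe A_51_P210591 (NM_013517, chr8:3682021-3682080, minus strand) had log2 signals of -5.76, -6.59 and -6.15 in MRL mice and -5.31, -5.67 and -5.81 in LPR mice. It was well above background on all 3 LPR arrays and on no MRL array. The groups overlapped and the difference did not pass (limma, adjusted p = 0.154), so no fold is given. The other Fcer2a probe, A_55_P2732758 (ENSMUST00000207327, chr8:3689270-3689329), had a log2 change of -0.21 ± 0.28 (SE, n = 3 per group; limma, adjusted p = 0.643).

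**Figure D2:**
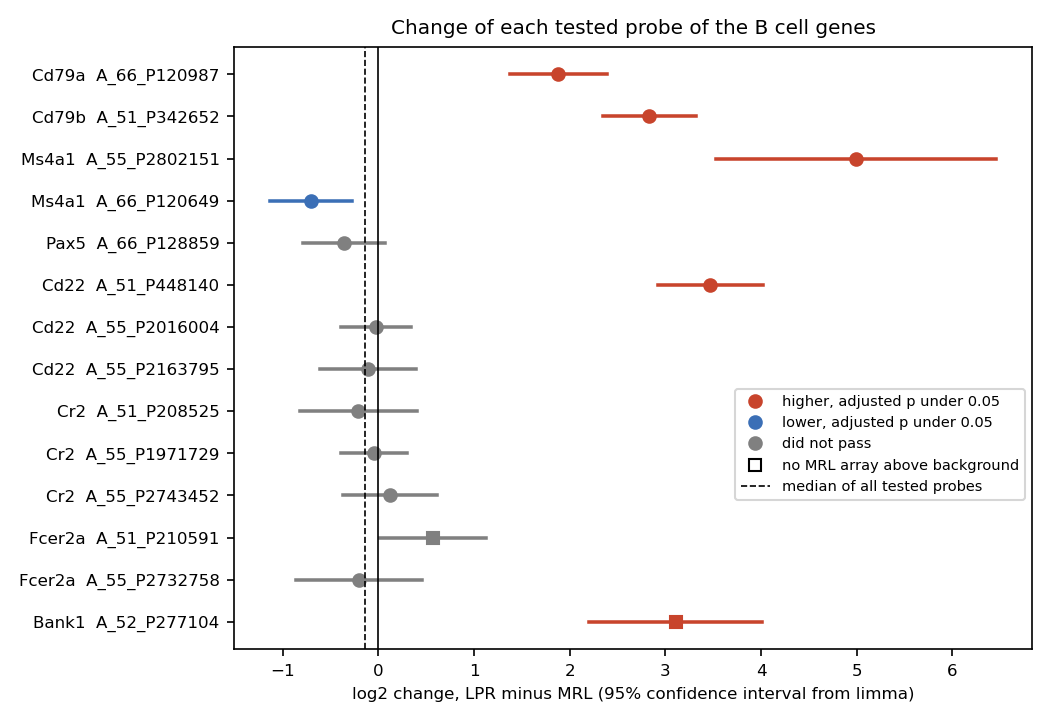
Log2 change, LPR minus MRL (horizontal axis), of the 14 tested probes, with 95% confidence intervals from limma (n = 3 per group). Squares mark probes with no MRL array well above background, and the dashed line is the median of all tested probes at -0.14. The 5 higher probes lie between 1.88 and 4.99, apart from the remaining 9.

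Taking for each gene its brightest tested probe, chosen without the groups, 3 of the 8 genes were higher (Cd79a, Cd79b and Bank1) and 1 was lower (Ms4a1), where 7.12% of all 25805 genes were higher and 5.47% lower. The median log2 change over the 8 genes was -0.04, and that of all genes was -0.12. Taking the mean of all tested probes of a gene instead, 5 genes were higher, Ms4a1 and Cd22 joining these 3, and none was lower. The count of member genes thus rests on which probe stands for Ms4a1 and Cd22.

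Arrays can differ in ways that the groups do not explain. By the array numbers in the file headers, the 3 MRL arrays and that of LPR mouse 1 share the first number, and those of LPR mice 2 and 3 share the next. With this number as a block, the log2 changes were 1.61 for Cd79a, 2.52 for Cd79b, 4.91 for the higher Ms4a1 probe, 3.52 for Cd22 A_51_P448140 and 3.16 for Bank1. The adjusted p values in limma were then 0.0392, 0.00614, 0.0511, 0.00632 and 0.0449, so Ms4a1 was no longer called. Since the first number alone holds both groups, LPR mouse 1 against the 3 MRL mice gave the same log2 changes, with the lone mouse assumed to vary like the others, and 2 of the 5 probes then passed (Cd79b, adjusted p = 0.0267, and Cd22, adjusted p = 0.0265). LPR mouse 1 lay above every MRL mouse in all 5 probes. A different background correction (normexp with 50 added to every signal) left every one of the 5 calls in place. Its log2 changes were smaller: 0.63 for Cd79a, 2.59 for Ms4a1, 1.45 for Cd22 and 0.90 for Bank1, against 2.62 for Cd79b. Adding 50 by itself narrows the ratios of dim probes most, and the correction without it was not tested.

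**Figure D3:**
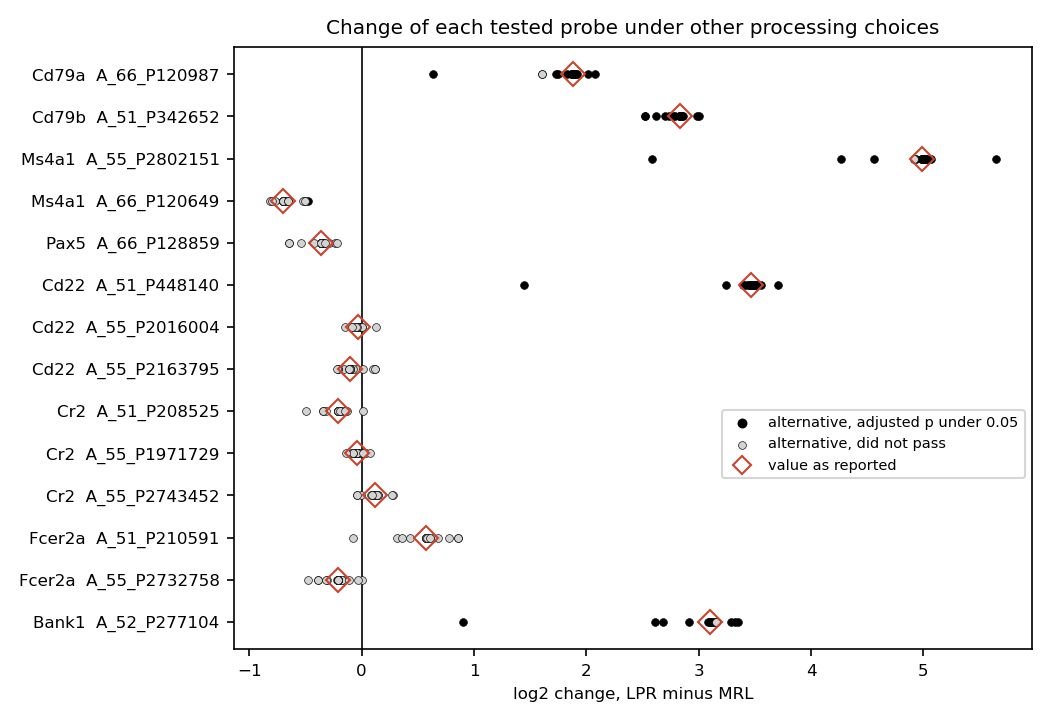
Log2 change of the 14 tested probes (horizontal axis, LPR minus MRL) as reported (diamonds) and under each other processing choice (dots, black where the adjusted p was under 0.05). The 5 higher probes stay above 0 throughout, from 0.63 for Cd79a to 5.64 for Ms4a1, and the Cd22 and Cr2 probes that did not pass lie between -0.50 and 0.28.

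Other genes of the B cell lineage were compared by their brightest tested probe. Of 48 such genes in 3 lists, 46 were tested, and by this probe 33 were higher in LPR mice and none was lower, where 7.12% and 5.47% of all genes were. Their median log2 change was 1.86, against -0.12 over all genes. Over all 95 tested probes of these genes, 64 were higher and 2 were lower, 1 of Lyn and 1 of Prkcb, a kinase of the same pathway whose naming was chosen after its values were seen. Some genes that did not pass by their brightest probe were higher on others. Examples are Ptprc (5 of 6 tested probes), Ikzf3 (3 of 6), Cd180 (3 of 4) and Fcrl5 (2 of 3). Ighm and Ighd, the heavy chain genes of naive B cells, have no probe of that name.

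In the signalling list, which holds kinases, adaptors and co-receptors below or beside the receptor, 15 of 21 genes were higher and 6 did not pass. Among the largest log2 changes was that of the receptor Cd72 (3.23). The smallest that passed were Plcg2 (0.43), the phospholipase that starts the calcium signal, the phosphatase Ptpn6 (1.09), which CD22 recruits, and the kinase Lyn (1.23), which phosphorylates the CD79 chains. The probes of Lyn and Prkcb went opposite ways, as those of Ms4a1 did. The dimmer Lyn probe, A_65_P04064, was lower, with a log2 change of -0.52 (limma, adjusted p = 0.0490), as was Prkcb probe A_52_P328867, with -0.83 (limma, adjusted p = 0.0254). The median of this list was 1.54.

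Among the 9 B cell transcription factors, 4 were higher and 5 did not pass, Pax5 not being counted here. The 4 were the octamer co-activator Pou2af1, with a log2 change of 5.28, Spib with 3.40, Pou2f2 with 2.40 and Irf8 with 1.57. The other surface and lineage genes had the highest median of the 3 lists, 2.52, and 14 of the 16 tested were higher. Cxcr5, the receptor that guides B cells into follicles, was at least 11.1-fold higher, Tnfrsf13c, the receptor for the survival factor BAFF, at least 17.7-fold and Fcrla at least 6.33-fold, with no MRL array well above background. The smallest changes that passed were those of Cd40 (0.84), Ly6d (1.43) and H2-Ob (1.86).

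B cell precursor genes gave no call. Dntt, Vpreb1 and Vpreb2 had log2 changes of -0.25, -0.17 and -0.32, and Rag1, Rag2 and Igll1 were not tested because they were too dim.

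**Figure D4:**
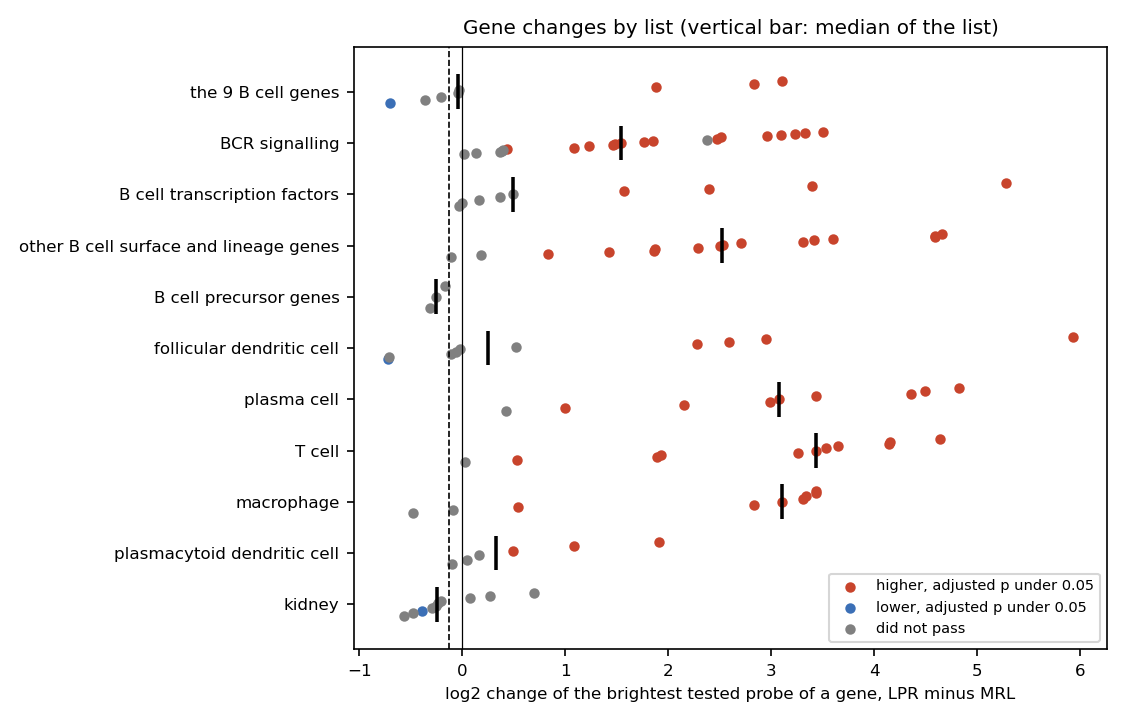
Log2 change of the brightest tested probe of each gene (horizontal axis, LPR minus MRL), by list. Dots are genes, coloured by their call at an adjusted p of 0.05, bars mark the median of each list, and the dashed line is the median of all genes at -0.12. The 9 B cell genes, of which 8 are plotted, hold 3 genes above 1.8 and 5 between -0.70 and -0.03, while the T cell list has a median of 3.43 and the kidney list one of -0.24.

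Markers of T cells, plasma cells and macrophages were mostly higher in LPR mice. Of 11 T cell markers 10 were higher (median log2 change 3.43), as were 8 of 9 plasma cell markers (3.07) and 7 of 9 macrophage markers, and none of these was lower. Over each list, the median level relative to the MRL mean was -0.07 to 0.13 in MRL mice and 3.36 to 3.57 in LPR mice for T cells, -0.16 to 0.15 and 2.69 to 3.55 for plasma cells, and -0.26 to 0.30 and 2.87 to 3.23 for macrophages. By the same measure, the 8 tested member genes had medians of -0.14 to 0.02 in MRL mice and -0.15 to 0.24 in LPR mice. This measure takes the brightest probe, and those of Ms4a1 and Cd22 were not higher. By the mean of the tested probes of a gene, 5 of these 8 genes were higher, Ms4a1 by 2.15 and Cd22 by 1.11 among them. The T cell genes Cd3d and Cd3g were well above background on all 6 arrays and higher by 4.14 and 4.15. Cd3e was higher by 1.89. Of the CD8 genes, Cd8b1 was higher by 1.93 and Cd8a did not pass, with a log2 change of 0.02. Several genes of the signalling list, such as Ptpn6 and Lyn, are also used by other blood cells, and the part of these cells in the results was not tested. Of 6 plasmacytoid dendritic cell markers, a cell type that shares several B cell genes, 3 were higher: Bst2 by 1.91, Cd300c by 1.08 and Ly6c2 by 0.49. Siglech, Tcf4 and Ccr9 did not pass, with log2 changes of -0.10, 0.05 and 0.17, and the median of the list was 0.33.

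Of 10 follicular dendritic cell genes, 4 were higher and 1 was lower, beside the Cr2 probes, which did not pass. The B cell chemokine Cxcl13 was higher by 5.93 ± 0.44 (SE, n = 3 per group; limma, adjusted p = 0.000254), Coch by 2.59 and Vcam1 by 2.28, and Cilp was at least 2.02-fold higher. Enpp2 was lower, with a log2 change of -0.72. Kidney markers were well above background on all 6 arrays, and 9 of 10 did not pass. The proximal tubule receptor Lrp2 was lower, with a log2 change of -0.39 (limma, adjusted p = 0.0492). This was the case for 1 of its 5 tested probes, and 5.47% of all genes were lower.

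The genes whose profile over the 6 arrays was most like that of the 5 higher member probes were taken from 25797 candidates. The mean profile of these probes, centred on all 6 arrays, was -1.61, -1.25 and -2.03 in MRL mice and 1.52, 1.65 and 1.72 in LPR mice. The closest was H2-Oa, a class II chaperone, with a root mean square difference of 0.0760 on the log2 scale. Also close were the costimulatory receptor Tnfrsf9 (0.118), the T cell adaptor Grap2 (0.162) and the B cell surface gene Fcrl1 (0.179). The log2 changes of H2-Oa and Grap2 were 3.28 and 3.18. No MRL array was well above background for Tnfrsf9 and Fcrl1, which were at least 5.88-fold and 2.08-fold higher. Their likeness thus rests on MRL signals that were not well above background, as does the part of Bank1 in the profile. Likeness over 6 arrays in 2 groups is mostly likeness in the size of the difference.

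Promoters were read from RefSeq on GRCm38.p6, taking the 250 bases before the start of transcription. Of the 9 genes, 6 matched, with 8 promoters: Cd79a, Pax5, Cd22, Cr2, Fcer2a and Bank1. Motifs of B lineage factors were searched on both strands. These were the octamer ATGCAAAT of Oct factors, the palindrome TCCCNNGGGA of EBF, the E-box CAGGTG of E2A and the PU box GAGGAA of PU.1. The E-box letters were found in 5 of 8 promoters and 5 of 6 genes, all but Pax5, where 17.2% of 32851 promoters hold them. The EBF palindrome was in Cd22 only (0.779% of all promoters), the PU box in Cd79a only (23.3%), and the octamer in none (1.6%).

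The promoters of 4 genes are shown because Cd79a, Cd22 and Bank1 were higher on at least 1 probe and Cr2 on none, although each holds the E-box letters. Capitals mark the E-box and, in Cd22, also the palindrome. Each sequence runs 5′ to 3′ in the direction of its gene.
Cd79a, chr7:24897247-24897496, plus strand: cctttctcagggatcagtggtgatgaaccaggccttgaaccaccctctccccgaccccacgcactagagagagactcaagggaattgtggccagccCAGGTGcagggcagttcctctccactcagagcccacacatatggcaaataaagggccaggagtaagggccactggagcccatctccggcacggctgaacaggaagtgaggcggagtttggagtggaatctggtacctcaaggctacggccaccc
Cd22, chr7:30879029-30879278, minus strand: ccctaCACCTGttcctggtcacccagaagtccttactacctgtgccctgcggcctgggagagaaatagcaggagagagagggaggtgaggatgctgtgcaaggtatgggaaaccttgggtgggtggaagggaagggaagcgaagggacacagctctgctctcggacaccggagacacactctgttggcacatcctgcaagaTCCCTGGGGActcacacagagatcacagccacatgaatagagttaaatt
Bank1, chr3:136326067-136326316, minus strand: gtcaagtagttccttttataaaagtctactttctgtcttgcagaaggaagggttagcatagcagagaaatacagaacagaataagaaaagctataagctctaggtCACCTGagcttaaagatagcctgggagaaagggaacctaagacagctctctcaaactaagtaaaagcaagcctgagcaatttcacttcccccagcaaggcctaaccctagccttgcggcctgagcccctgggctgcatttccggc
Cr2, chr1:195176720-195176969, minus strand: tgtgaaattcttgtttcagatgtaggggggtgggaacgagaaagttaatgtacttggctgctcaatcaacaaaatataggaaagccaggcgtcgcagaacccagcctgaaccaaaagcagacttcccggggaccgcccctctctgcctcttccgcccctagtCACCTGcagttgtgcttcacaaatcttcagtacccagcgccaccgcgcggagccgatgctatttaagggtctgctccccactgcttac
The E-box lies 154 bases before the start in Cd79a, 245 in Cd22, 145 in Bank1 and 88 in Cr2, counted to its first base in the direction of the gene. The letters were thus present in genes that were higher and also in Cr2 and Fcer2a, which did not pass on any probe. Binding was not measured.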

How the data were processed

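Kidney RNA of 3 MRL and 3 LPR mice was read on single-colour Agilent mouse arrays, 1 mouse per array. The authors deposited scanner intensities from Agilent Feature Extraction 12.0.3.1, background-subtracted and detrended array by array, and the same values as a ratio to the 75th percentile of each array, used as an alternative. Mapping of probes to mm9 is per the file headers.

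Intensities were taken to log2 and the 75th percentile over all spots that are not controls was subtracted for each array. Spots marked as outliers (73 to 90 per array) were left out and repeated spots averaged by probe. Probes entered the test when 3 or more of the 6 arrays showed them well above background. LPR and MRL mice were compared by lmFit and eBayes in limma 3.58.1 (R 4.3.3), p-values were adjusted by Benjamini-Hochberg over the 39924 probes tested, calls were made at 0.05, and the code was tested on simulated data. Plots used matplotlib 3.10.9 (Python 3.11.15). No counts exist for arrays, so 3 mice per group limit the precision. Each p sets the group difference against the spread between these mice, which limma draws toward a value shared over all tested probes. An exact test of 3 against 3 cannot go below 0.10, so none is given. Where no array of a group was well above background, any fold printed is a lower bound. Between 69.60 and 73.53% of spots were well above background, none was saturated, arrays of a group correlated at 0.990 to 0.993, and those of different groups at 0.961 to 0.971. All arrays shared 1 slide and 1 scan.

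Named are all member probes, of each list the 3 largest and 3 smallest changes past the threshold, any that were lower or not tested, and the 5 genes of most like profile. Some genes that this rule names are not reported here, though counts and medians include them. Markers of T cells, plasma cells and macrophages are given by count, with a few T cell genes named. Cd3e, Cd8b1 and some genes that did not pass were named after their values were seen. The 9 genes and all lists were chosen with earlier results of these data known. Signals of different probes were not compared as amounts of transcript. The alternatives were other background corrections, normalizations, filters, variance models, blocks and tests, and each mouse left out in turn.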

Additional observations from a re-analysis of the deposited data

How the results depend on the processing

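The 5 higher member probes kept their direction under every alternative that tested them. Their calls were lost in 2 settings. With the array number as a block, Ms4a1 A_55_P2802151 had an adjusted p of 0.0511, which leaves 4. Within the first array number, an alternative chosen after seeing the data that leaves out 2 arrays, 2 probes, 1 member gene and 21 other B cell genes were higher. Among probes well above background on all 6 arrays 2 were left, since the other 3 were not tested. The lower call of Ms4a1 A_66_P120649 went to 0 probes with quantile normalization, a median shift, the 75th percentile over detected probes, the authors' divided values, no filter on dim probes, the array number as a block, the replicate block, the methods' t-test, within the first array number and with each mouse left out (0 to 0); the cause was not tested. By the mean of the tested probes 5 member genes were higher.

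No call of the probes below was made under any setting, but their sign turned. Cd22 A_55_P2016004 was 0.0010 with the detected percentile and -0.15 to 0.13 with a mouse left out. Cd22 A_55_P2163795 was 0.12 with the array number as a block and also within the first number, and -0.22 to 0.11 with a mouse left out. Cr2 A_55_P1971729 was 0.014 in both of those settings and -0.14 to 0.078 with a mouse left out, where Cr2 A_51_P208525 was -0.50 to 0.0091 and Cr2 A_55_P2743452 was -0.041 to 0.28. With normexp Cr2 A_55_P2743452 was -0.039 and Fcer2a A_51_P210591 was -0.074. The cause was not tested.

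The replicate numbers were taken from the labels. Deviations of equally numbered mice correlated at 0.115, 0.0203 and 0.00521, so the numbers were not taken to pair the mice. With the replicate block the higher count stayed at 5 and the lower count was 0. Signal over background limits Blk, Bank1, Cd22, Ms4a1 A_55_P2802151 and the first Fcer2a probe, where MRL levels are bounds or nearly so. With signals floored at the detection limit, the log2 change of this Ms4a1 probe was 4.56.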
